A study of Mus with 4 samples.

Results

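Pseudouridine (Ψ) was examined in the 2 small nuclear RNAs that recognise the branch site of introns, U12 (gene Rnu12) and U2 (gene Rnu2-10), in cochlear tissue of mice. All rows that the deposited site table names Rnu12 or Rnu2-10 were taken, which gave 6 sites (4 in U12 and 2 in U2) among 755 sites of 465 genes. The mice carried the Otof c. 1315 C > T (p.R439X) change, a nonsense mutation in the gene for otoferlin, which inner hair cells need to release transmitter. The labels describe 2 samples with the RNA editing system RESTART v3 and 2 untreated samples of this genotype. All values are those headed OTOF-/- 1 and OTOF-/- 2, which were taken as the 2 untreated samples and are called replicates 1 and 2. Samples given RESTART v3 are not analysed here. The study times the collection of the cochleae by the weeks since injection of young mice with RESTART v3. How many animals gave each sample was not given in the sources used here. A p between the replicates covers counting error only and not the spread among animals, and a difference that passes may be technical.

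U2 belongs to the major spliceosome and U12 to the minor spliceosome, which removes a small class of introns with its own splice site sequences. Each RNA pairs through a short segment near its 5′ end with the intron branch site, so that the branch adenosine bulges out and can attack the 5′ splice site. Ψ in spliceosomal RNAs is made mostly by H/ACA particles, in which a guide RNA of the Cajal body selects the uridine and the synthase dyskerin isomerises it. In human U12, the known Ψ lie in and beside the segment that pairs with the branch site. In human U2, Ψ are known in that segment, and also further downstream.

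The assay, PRAISE, treats RNA with sulfite and bisulfite, after which reverse transcriptase tends to skip Ψ, so that a modified base is read as a deletion. Each sample had 2 libraries, one with this chemistry and one control without it. The level of a site is the percentage of chemistry reads with a deletion minus that of control reads, in percentage points. A site given as a run of positions has 1 level for the whole run, and the uridine within it is not resolved. The table lists only sites that passed the authors' thresholds in a replicate, so a position that is not listed has an unknown level and not a level of 0.

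In U12, the level was high at a pair of sites close to the 5′ end and low at the others. Position 18 (GRCm39 chromosome 15, 83033863) had a level of 88.2 points in replicate 1 and 83.3 points in replicate 2, a mean of 85.8 ± 3.52 points (SD, n = 2). Deletions were found in 377 of 424 and 366 of 435 chemistry reads, against 4 of 599 and 5 of 580 control reads. Most chemistry reads over this base thus carried a deletion, and the level in replicate 2 minus that in replicate 1 was -4.97 points.

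Position 27 of U12 (chromosome 15, 83033872) had 76.3 and 73.5 points, a mean of 74.9 ± 2.01 (SD, n = 2). Deletions were in 437 of 572 and 425 of 577 chemistry reads, against 1 of 992 and 2 of 983 control reads. The next site lay only a few bases further on but was far lower. Positions 33 to 34 (run ending at chromosome 15, 83033879) had 12.01 and 14.4 points, a mean of 13.2 ± 1.70, from 102 of 849 and 128 of 884 chemistry reads, against 0 of 1843 and 1 of 1775 control reads.

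The 4th site of U12, positions 118 to 120 (run ending at chromosome 15, 83033965), lay in the 3′ part of the RNA and was listed in replicate 1 alone. It had a level of 5.10 points, from 13 of 202 chemistry reads and 5 of 373 control reads. The 95% interval of this level, from 1.93 to 9.43 points, extends below the threshold of 5 points that a listed site had to exceed, and the lowest level listed anywhere in replicate 1 was 5.05 points. Its control deletion of 1.34% was above that of 95.2% of the 609 sites listed in replicate 1. Its level in replicate 2 is unknown.

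In U2, both listed sites lay near the middle of the RNA and not in its 5′ part. Position 89 (chromosome 11, 101549152) had levels of 22.5 and 25.05 points in replicates 1 and 2, a mean of 23.8 ± 1.80 (SD, n = 2). Deletions were in 3105 of 13646 and 3345 of 13226 chemistry reads, against 388 of 158913 and 629 of 259897 control reads. Positions 91 to 92 (run ending at chromosome 11, 101549155) had 32.0 and 35.6 points, a mean of 33.8 ± 2.55, from 4429 of 13386 and 4765 of 12993 chemistry reads, against 1629 of 147048 and 2639 of 242603 control reads. At most 36.7% of the chemistry reads were deleted at a U2 site, and the run was the higher of the neighbours in both replicates.

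**Figure D1:**
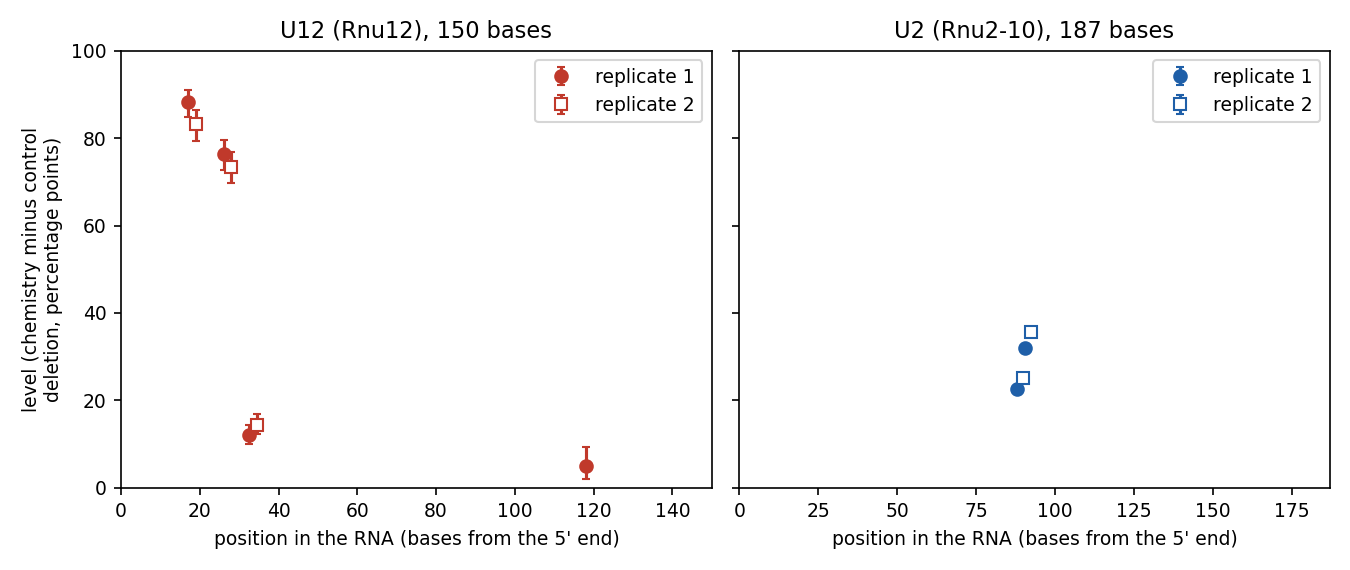
Level of each listed site (percentage points, vertical axis) by its position in the RNA (bases from the 5′ end, horizontal axis) in U12, left, and U2, right. Filled circles are replicate 1, open squares replicate 2, drawn slightly apart, and bars are 95% intervals of counting error. U12 reaches 88.2 and 83.3 points at position 18, while the 2 U2 sites at mid-length stay between 22.5 and 35.6 points.

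Seen along the RNA, the higher U12 sites and the run at 33 to 34 lay within the first 34 of the 150 bases that RefSeq gives U12. The U2 sites began at 47.6% and 48.7% of its 187 bases. All coordinates of an RNA gave the same first base, 83033846 on chromosome 15 for U12 and 101549064 on chromosome 11 for U2, both on the plus strand. Both transcripts are non-coding, and each site lies in the RNA itself. No site of U2 was listed upstream of position 89, the part that holds its branch site segment. Read depth at unlisted positions was not analysed here, so nothing follows for Ψ in that segment of U2, and no sequence of either RNA was used.

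All 6 sites met the call rule in replicate 1, where 99.1% of sites with enough reads met it, and 5 met it in replicate 2, where 98.9% did. The rule asked for 20 reads or more in the chemistry and the control library, a level above 5 points, a control deletion below 5% and a Fisher exact p of chemistry against control reads below 0.005. The 5 sites called in both replicates ranged from 13.2 to 85.8 points, with a median of 33.8 points, which is the level of the U2 run. The median over all 428 sites called in both was 26.9 points. Over both replicates, 98.6% of 434 sites with enough reads were called, since listing had already asked for almost the same, so the calls say little about U2 and U12 in particular. For U12 positions 118 to 120 the two-sided Fisher exact p was 0.00163 in replicate 1.

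How the sites of the 2 RNAs rank was asked next. In order of level, U12 position 18 came first and U12 position 27 second, then U2 positions 91 to 92, U2 position 89 and U12 positions 33 to 34. No neighbours in this order overlapped between replicates. The gap between the lower replicate of one and the higher replicate of the next was 6.98 points below U12 position 18, 37.9 points below U12 position 27, 6.93 points below the U2 run and 8.09 points below U2 position 89. U12 thus held both the highest and the lowest of the 5 sites, with U2 in between.

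All 10 pairs among the 5 sites were compared in each replicate by a two-sided Fisher exact test of chemistry reads, with Benjamini-Hochberg adjustment over the 20 tests. All 10 pairs passed in both replicates in the same direction, and the largest adjusted p, by the Fisher exact test, was 6.18e-05, for U12 position 18 against U12 position 27 in replicate 2. There the deletion was 84.1% at position 18 and 73.7% at position 27, a difference of 10.5 points (95% interval 5.41 to 15.4). Sites of 1 RNA share reads, and the test covers counting error only, not the spread among animals.

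U12 exceeded U2 by most at the 5′ sites. U12 position 18 was higher than U2 positions 91 to 92 by 52.0 ± 6.07 points and than U2 position 89 by 62.0 ± 5.31 points (mean difference of levels ± SD, n = 2). U12 position 27 was higher than the same U2 sites by 41.1 ± 4.56 and 51.1 ± 3.81 points. For the low U12 site the direction turned round. U12 positions 33 to 34 differed from U2 position 89 by -10.6 ± 0.0920 points and from U2 positions 91 to 92 by -20.6 ± 0.847 points, so that U2 was higher. No single statement that one RNA has higher levels than the other holds over all 6 pairs of a U12 and a U2 site. These comparisons are of deletion, between single positions and runs, in the 5′ part of U12 and near the middle of U2. No U2 site in its branch site segment was listed to set beside those of U12. How deletion relates to the share of Ψ at each site was not calibrated here.

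Within U12, position 18 was above position 27 by 10.9 ± 1.504 points and above positions 33 to 34 by 72.5 ± 5.22 points. Position 27 was above positions 33 to 34 by 61.7 ± 3.71 points, the largest step between neighbouring sites of either RNA among those listed in both replicates. Within U2, position 89 differed from positions 91 to 92 by -10.003 ± 0.755 points. This difference was steadier over the replicates than the levels of either site, which moved together.

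The replicates themselves differed at U2. Both U2 sites passed the replicate test, while none of the 3 U12 sites did. The test was a two-sided Fisher exact test of chemistry reads in replicate 2 against replicate 1, over 441 sites where each replicate had 20 such reads or more, adjusted over all 441. Over the whole series 2.27% of sites passed (10 of 441). Those higher in replicate 2 were 0.68% (3 of 441), and the U2 sites were 2 of these 3. At positions 91 to 92 of U2 the deletion in replicate 2 exceeded that in replicate 1 by 3.59 points (95% interval 2.44 to 4.74, Fisher exact, adjusted p = 2.33e-07). At position 89 it did so by 2.54 points (1.52 to 3.56, Fisher exact, adjusted p = 0.000105).

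These U2 differences passed at a depth where small differences pass more often. Of the 67 sites with at least 1000 chemistry reads in each replicate, 11.9% passed (8 of 67). Outside Gm26917, Lars2, Gm46178 and Gm15564, 4 genes with uneven reads, 17.5% did (7 of 40), and when p was adjusted over the 67 sites alone, a setting chosen after the data had been seen, 26.9% did (18 of 67). The difference in level between the replicates had an SD of 2.24 points over these 67 sites and of 2.66 points over the 40 outside those genes, and its median size over the 67 was 0.733 points. By size, the U2 run ranked 6th and U2 position 89 ranked 10th among the 67. The U2 differences thus passed a test that covers counting error only, and several other deep sites showed differences of similar or larger size. The 2 U2 sites lie side by side and share reads, so they are not independent of each other.

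At U12 the replicate differences could not be told from counting error after adjustment. Deletion in replicate 2 minus replicate 1 was -4.78 points at position 18 (95% interval -9.35 to -0.195, Fisher exact, adjusted p = 0.381), with an unadjusted p of 0.0457 by the same exact test. It was -2.74 points at position 27 (-7.73 to 2.27, Fisher exact, adjusted p = 0.78) and 2.47 points at positions 33 to 34 (-0.738 to 5.66, Fisher exact, adjusted p = 0.673). The 2 high U12 sites were lower in replicate 2, whereas the low U12 site and both U2 sites were higher there. With 424 to 884 chemistry reads per site the U12 intervals were wide. That of positions 33 to 34 held both U2 differences, while those of positions 18 and 27 ended below them. Whether U12 and U2 differ in how they moved between the replicates was not tested.

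**Figure D2:**
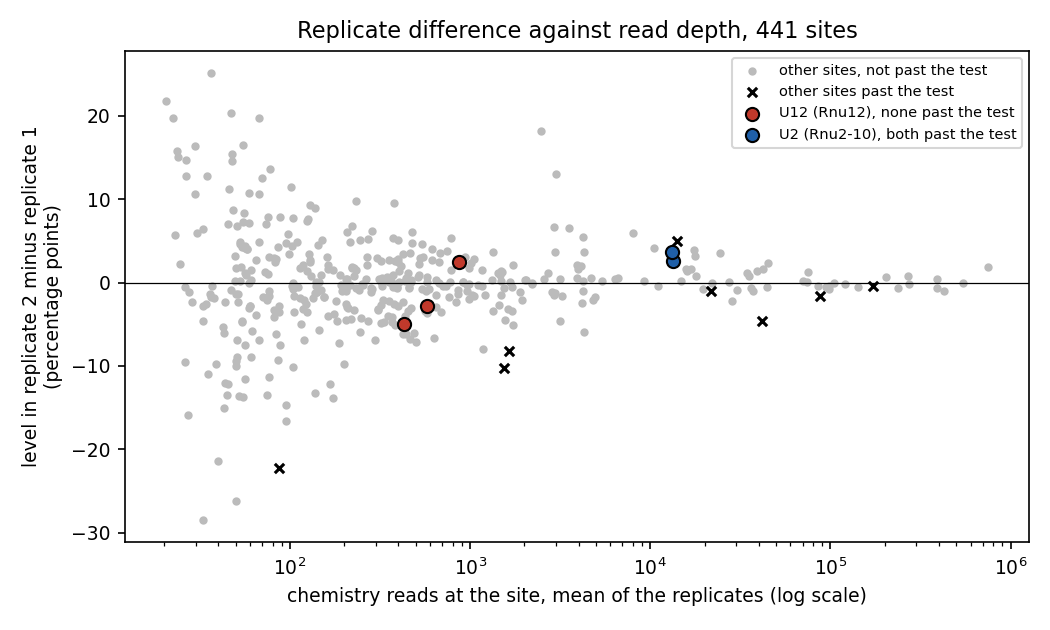
Difference in level between replicates (replicate 2 minus replicate 1, percentage points, vertical axis) by mean chemistry reads at the site (horizontal axis, log scale) for 441 sites. The 3 U12 sites are red, the 2 U2 sites blue, other sites that passed the replicate test black crosses, and the rest grey. Both U2 sites lie above 0, by 2.54 and 3.61 points, at 13436 and 13189.5 mean reads, and deeper sites lie to their right. The spread of the grey points narrows with depth.

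Without the chemistry, deletion at U2 was nearly the same in both samples. At positions 91 to 92 of U2 the control libraries had 1.11% deletion in replicate 1 and 1.09% in replicate 2, and at position 89 they had 0.244% and 0.242%. None of the 5 sites passed the Fisher exact test between control libraries, and none had an unadjusted p under 0.05 there. Over the whole series 0.21% of 477 sites passed it, and 11 had an unadjusted p under 0.05. The control deletion of the U2 run was nonetheless high for a listed site, above that of 93.4% of listed sites in replicate 1 and 96.3% in replicate 2, where the median listed site had 0%. Its 1629 and 2639 deletion reads make this background well measured, and the level subtracts it.

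Read depth set the RNAs far apart. U2 position 89 had the most control reads of all 646 sites listed in replicate 2, and U2 positions 91 to 92 came second. In replicate 1 they ranked 4th and 5th of 609. In the chemistry libraries the U2 sites ranked 9th and 10th in replicate 1, and 49th and 52nd in replicate 2. U12 sites had 202 to 884 chemistry reads, against a median of 121 and 137 at listed sites. Depth here counts the reads that cover a site, so it does not compare how much of each RNA the tissue holds, and 1 read can cover several sites.

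The chemistry and the control libraries also covered the RNAs in unlike proportion. Control reads per chemistry read were 1.33 to 2.17 at the U12 sites, against 11.0 and 11.6 at the U2 sites in replicate 1 and 18.7 and 19.7 in replicate 2. The median over listed sites was 2.32 in replicate 1 and 1.42 in replicate 2. U12 was thus near the typical site. The U2 ratios were above those of 90.97% (position 89) and 89.7% (positions 91 to 92) of listed sites in replicate 1, and of 99.2% and 99.1% in replicate 2. High ratios were also found for U5 RNA (Rnu5g), at 44.5 in replicate 1 and 14.9 in replicate 2 for positions 40 to 43, and for U1 RNA (Rnu1a1), at 28.2 and 15.1 for positions 5 to 6, so that U2 was not alone among spliceosomal RNAs.

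The depth of the control moved with the replicate at U2. Control reads at the U2 sites were 1.64 and 1.65 times as many in replicate 2 as in replicate 1, while the median site had 0.836 times as many. Chemistry reads at U2 changed little, at 0.969 and 0.971 times. At the U12 sites the control factor was 0.963 to 0.991 and the chemistry factor 1.01 to 1.04. The replicate test counted chemistry reads only, so control depth did not enter it. Whether this shift and the replicate difference of U2 are related was not tested.

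**Figure D3:**
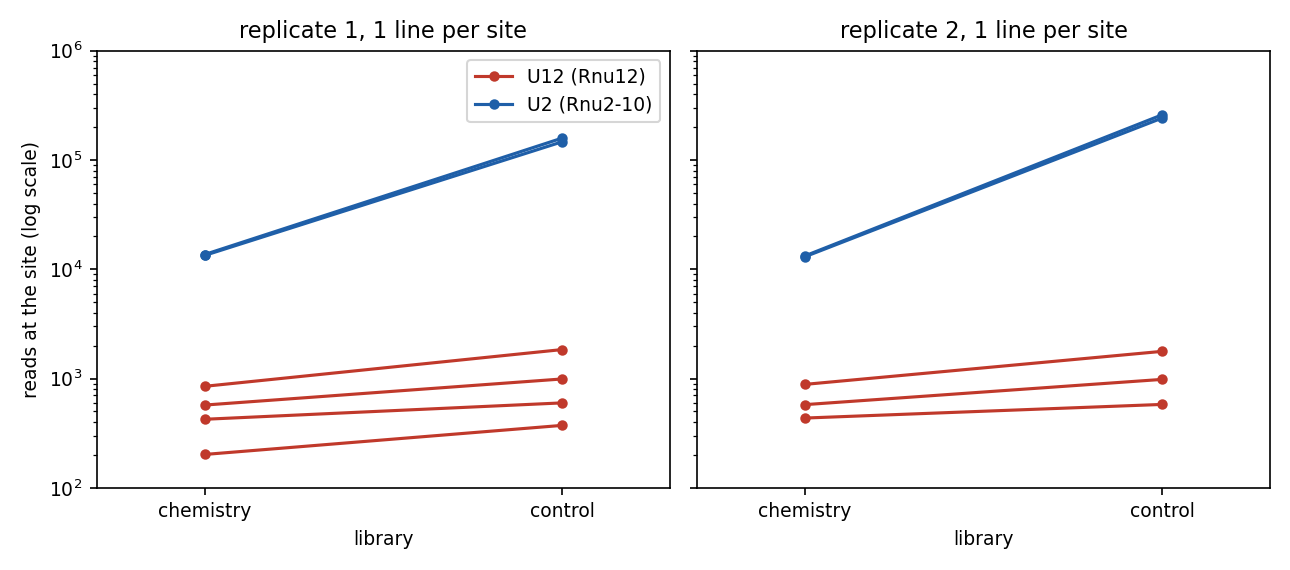
Reads at each site (vertical axis, log scale) in the chemistry library and the control library of replicate 1, left, and replicate 2, right, with 1 line per site, U12 in red and U2 in blue. The U2 lines climb steeply, by 11.0 to 19.7 control reads per chemistry read, while the U12 lines stay nearly flat at 1.33 to 2.17.

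Predicted snRNA genes with sites at the positions of U2 were looked for after the values had been seen, and are described without a test. Position 89 was listed in 2 other snRNA genes and positions 91 to 92 in 3, all of them predicted genes of 191 bases by RefSeq length, Gm22973, Gm25360 and Gm25813. Gm25813 was close to U2 at both. It had 21.4 and 24.8 points at position 89, from 82 of 380 and 117 of 466 chemistry reads, and 33.0 and 34.9 points at positions 91 to 92, from 124 of 369 and 164 of 459 reads. Its 95% Wilson intervals at the run, 29.0% to 38.6% and 31.5% to 40.2%, hold the U2 deletion of 33.1% and 36.7%.

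The other predicted genes were less uniform. Gm22973 had 29.6 and 31.2 points at positions 91 to 92. Gm25360 had 20.7 and 23.6 points there, and 6.65 and 7.03 points at position 89, where U2 had 22.5 and 25.05 points. All 5 of these sites were higher in replicate 2, like those of U2, though none passed the replicate test, and 47.6% of the 500 sites listed in both replicates were higher in replicate 2. Control reads at position 89 were likewise more numerous in replicate 2, with 2990 in Gm25813 and 2397 in Gm25360, than in replicate 1, with 1383 and 1103. The files do not say what these genes are, and whether their reads come from their own transcripts or from those of U2 was not tested. Their values cannot therefore be taken as independent of those of U2.

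A further gene of the same length, Gm25939, and 2 of those above had sites in the 5′ part, where Rnu2-10 had none. Gm25939 had 5.07 points at positions 43 to 44 in replicate 1 alone, 6.54 and 6.94 points at positions 53 to 55, and 5.28 and 5.76 points at position 58. Positions 53 to 55 were also listed in Gm22973, at 5.91 and 10.7 points over 60 and 46 chemistry reads, and in Gm25813, at 5.69 points in replicate 2 alone. The levels of these 5 sites ran from 5.07 to 10.7 points, where a listed site had to exceed 5 points. In all, 4 of the 15 predicted snRNA genes of this length in the gene table had a site. The share over all genes was not worked out, so this count is not read as particular to them. A gene without a listed site may still carry Ψ. None of the U12 positions was listed in another gene that RefSeq types as snRNA. Other genes of any type with a site at the same position numbered 5 for U12 position 27 and 1 for U12 positions 118 to 120. They numbered 3 for U2 position 89 and 3 for U2 positions 91 to 92.

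**Figure D4:**
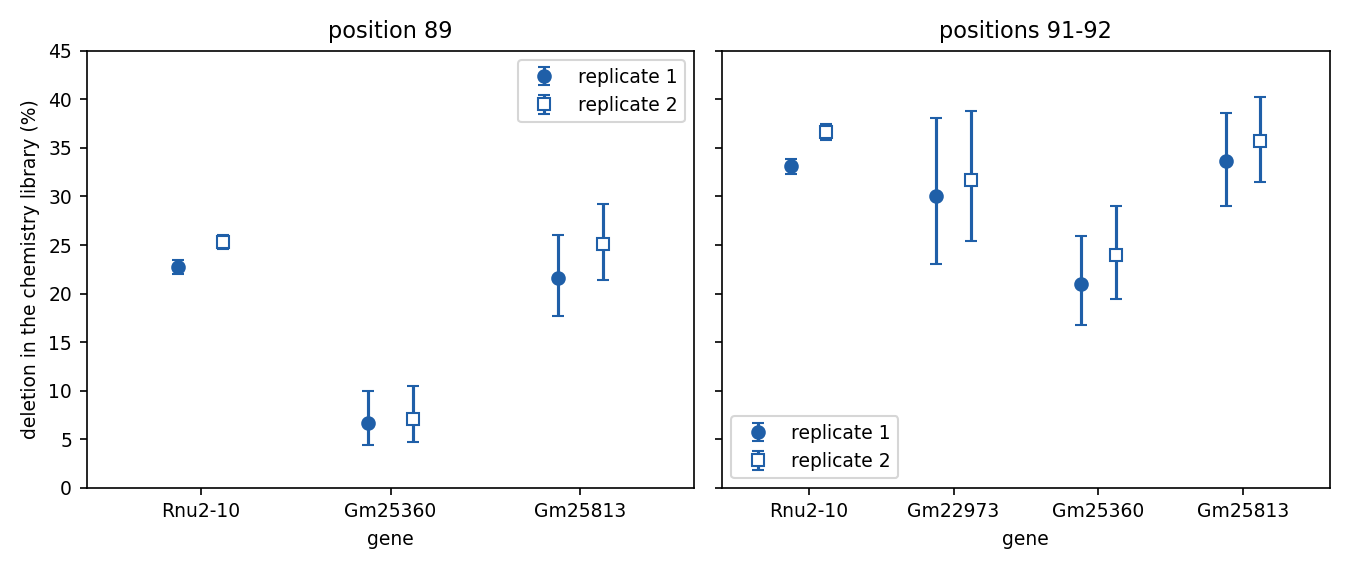
Deletion in the chemistry library (%, vertical axis) at position 89, left, and positions 91 to 92, right, in Rnu2-10 and in predicted snRNA genes of 191 bases. Filled circles are replicate 1, open squares replicate 2, and bars are 95% Wilson intervals. Gm25813 overlaps Rnu2-10 at both, while Gm25360 lies lower, at 6.65% and 7.07% at position 89.

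Among the spliceosomal RNAs looked for by name, U12 stood at the top of the listed sites. Predicted snRNA genes were not part of this order. Of 10 other spliceosomal RNA genes looked for, 4 had a listed site and 3 had 9 sites called in both replicates, with a median of 36.5 points and a range from 9.89 to 72.8 points. Together with U12 and U2 this made 14 sites. U12 positions 18 and 27 ranked first and second, above the sites of U5, the RNA that aligns exon ends, at positions 52 to 54 (72.8 ± 2.43 points) and 40 to 43 (66.8 ± 2.81). U12 position 27 at 76.3 and 73.5 points and U5 positions 52 to 54 at 74.5 and 71.1 points overlapped between replicates, so their order is not settled.

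U2 fell in the middle of this order. Its run ranked 8th of 14, between U6 position 40 (36.5 ± 7.21 points, Rnu6, the catalytic RNA that pairs with U2) and U1 positions 5 to 6 (27.0 ± 3.59), and U2 position 89 ranked 10th. The U2 run overlapped U6 position 40 and also U6 positions 85 to 86 (41.4 and 31.9 points) between replicates, and U2 position 89 overlapped both U1 positions 5 to 6 and U6 positions 9 to 10. U12 positions 33 to 34 ranked 12th, next to U6 position 23 (12.3 ± 2.38 points), which they overlapped. Among all 428 sites called in both replicates, U12 position 18 ranked 33rd and position 27 ranked 71st, the U2 run 184th, U2 position 89 235th and the low U12 run 312th.

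**Figure D5:**
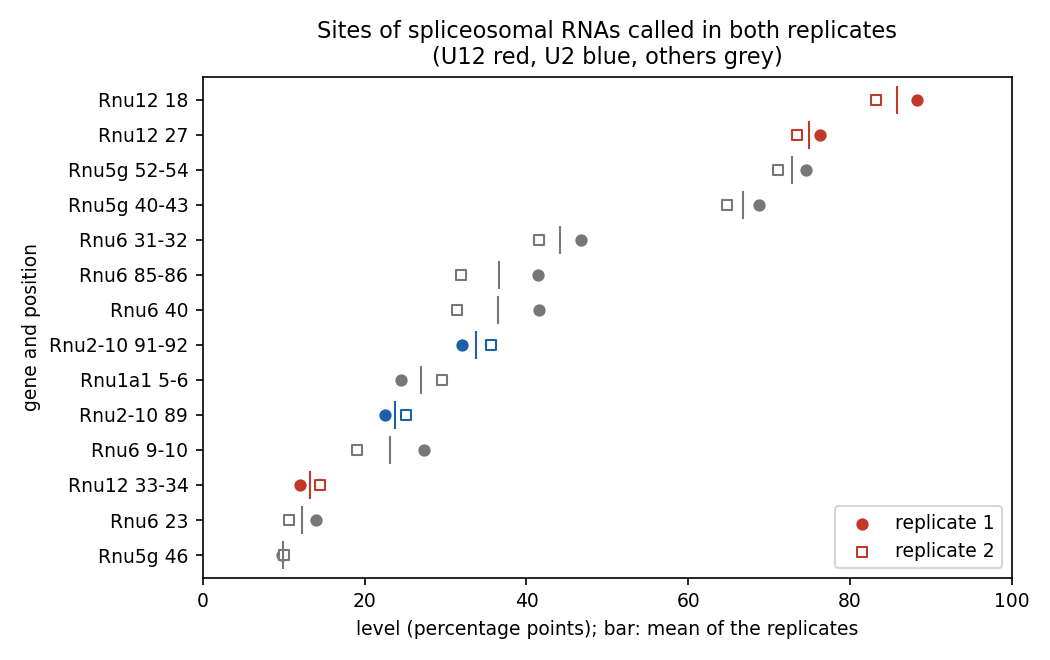
Level (percentage points, horizontal axis) of the 14 sites called in both replicates in spliceosomal RNAs looked for by name, without predicted snRNA genes. Sites are in order of their mean, with U12 in red, U2 in blue and the other RNAs in grey. Circles are replicate 1, squares replicate 2 and vertical bars the mean. U12 holds the first, second and 12th place, and U2 the 8th and 10th.

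Sites with the most similar levels were found by the Euclidean distance over the 2 replicates among sites with at least 100 chemistry reads in each. Nearest to U12 position 18 were position 16 of Gm26079 (86.3 and 84.8 points, distance 2.47 points) and positions 938 to 939 of Gm39827 (86.7 and 86.3 points, distance 3.42). Nearest to U2 positions 91 to 92 were the same positions of Gm25813 (distance 1.20 points) and position 400 of Rplp1 (31.5 and 33.9 points, distance 1.76), a protein of the ribosomal stalk. With 2 samples such nearness describes the height of a level and little else.

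Genes for proteins that act with spliceosomal RNAs were counted by listed sites. The share of all protein genes with a listed site was not worked out, so low counts are not read as particular to these genes. None of 25 proteins of the U2 and U12 particles and none of 7 Sm proteins, the ring on which the particles are built, had a listed site. Of 18 genes for the H/ACA particle and Ψ synthases, 1 was listed, Dkc1, which encodes dyskerin, in 1 replicate alone. Guide RNAs of the Cajal body, taken as all listed genes whose symbol starts with Scarna, had 5 sites in 3 genes. Which RNA each of them guides was not examined. Of the 5 sites, 2 were called in both replicates, against 428 of 755 sites over all genes. Both were in Scarna10, with mean levels of 19.9 points at position 6 and 26.8 points at positions 17 to 18. Chemistry reads were 71 and 32 at position 6, and 134 and 75 at positions 17 to 18, in replicates 1 and 2. For the tissue, 3 of 16 cochlear genes had a site (Otog, Otos and Triobp). Otof had none. As the table holds sites and not expression, an absent gene may lack Ψ, reads or a passing test, and the labelled tissue could not be checked further.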

How the data were processed

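Values came from cochlear tissue of 2 untreated Otof c. 1315 C > T samples. According to the study's methods and the submitters' processing notes, the authors trimmed read 2 with cutadapt 4.2, collapsed identical reads, cut molecular identifiers with UMI-tools 1.0.0, thinned libraries to a common size and aligned to GRCm39 RefSeq transcripts with PRAISE-tool. The deposited counts were deletion and total reads per site, the deposited ratios and levels were fractions of these, and the deposited p-values came from a contingency table test. Only counts entered results, after the fractions were checked against them. Reads per library were not used here, and depth is given per site. Identical reads were collapsed while they still held their identifiers. That step, and multiple copies of an RNA, can alter counts.

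Python 3.11.15, NumPy 2.4.6, SciPy 1.17.1, pandas 2.3.3 and matplotlib 3.10.9 were used. The calls and the replicate test were run over all sites, and the pair test over U12 and U2 sites only. Simulated data were used to check the replicate test, with shifts larger than those seen at U2, and the coverage of the Newcombe interval. The calls and the pair test were not checked in this way. Intervals (Wilson for a percentage, Newcombe for a difference, both 95%) and Fisher exact tests cover counting error only. Adjustment was by Benjamini-Hochberg at 0.05. Calls, the replicate test and the pair test were as described with each result. Named genes were the members, fixed lists of spliceosomal RNAs, their proteins, H/ACA genes and cochlear genes, and the nearest sites by level. Others were named after their values were seen. The members and lists were chosen with earlier results of these data known. Gene lengths and types came from RefSeq for GRCm38.p6, whose coordinates were not used. Of the 20 runs stored as calendar dates, 0 belonged to U12 or U2. No per-sample column was left out. Alternatives changed the read minimum, thresholds, adjustment, test, sites tested and replicates kept.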

Additional observations from a re-analysis of the deposited data

How the results depend on the processing

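All 40 alternatives kept the direction and side of the threshold of the U12 and U2 results they were run on. Of these, 1 was chosen after the data had been seen, the replicate test over the 67 sites with at least 1000 chemistry reads, in which 18 of 67 sites (26.9%) passed, against 10 of 441 (2.27%) in the test as reported. With one replicate left out, sites called numbered 5 to 6, and the 6th was U12 positions 118 to 120, seen in replicate 1 alone. Over 7 settings the Fisher or normal adjusted p of the replicate test ranged from 3.54e-08 to 4.66e-07 for U2 positions 91 to 92 and from 1.59e-05 to 0.000524 for U2 position 89, and the lowest of each came from the 67 sites. Over 6 settings it was never under 0.335 for U12 position 18. The levels of the 5 sites listed in both replicates stayed within the SD of their replicates, which a single replicate does by construction. U12 positions 118 to 120, with 1 replicate and no SD, had 6.44 points without subtraction of the control ratio and 5.10 points with it. No paired analysis was possible because the RESTART v3 samples are not analysed here and the replicates belong to 1 group.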
